A study of Rattus norvegicus with 24 samples.

Results

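Peri-implant bone of rat tibia around control implants was compared between day 28 and day 7 after surgery. The control (Ctrl) implants were plugs of poly(lactide-co-glycolide acid) (PLGA), a degradable polymer, without Li+, and per the study's methods they carried sodium carbonate instead. The 12 arrays labelled as Ctrl, of 24 in the series, make up this comparison, with 6 arrays from day 28 (rats 21, 23, 27, 28, 29 and 30) and 6 from day 7 (rats 4, 5, 7, 10, 11 and 15). All animals were male Sprague Dawley rats, and each also carried an implant with Li+, whose array forms the other part of the series. The days hold different rats, so each value below comes from 1 animal and the days were compared without pairing.

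Bone that has been drilled heals in overlapping stages. Clot and debris first draw in neutrophils and macrophages, mesenchymal cells of the periosteum and marrow then lay down a collagen-rich woven matrix, and osteoclasts remodel that matrix while blood-forming marrow returns to the cavity. Osteoblasts make type I collagen, enzymes cross-link it outside the cell, and small leucine-rich proteoglycans and matricellular proteins tune how fibrils and cells meet. PLGA breaks down into lactic and glycolic acids, which macrophages and giant cells at the surface encounter as the polymer erodes.

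RNA was hybridized to Affymetrix Rat Gene 2.0 ST arrays, which read each gene through a set of probes. Values are log2 signals, on which a difference of 1 is a 2-fold change, and they compare samples for 1 gene rather than genes with each other. The 12 arrays were alike in their medians, between 7.23 and 7.34, and in their correlation with the other arrays of their day, whose median was lowest for rat 10 of day 7 (0.980) and highest for rat 30 of day 28 (0.991). Rat 10 stood apart on the second principal component and rat 23 of day 28 on the third, which held 17.5% and 14.5% of the variance. Bone markers were high on every array: Col1a1 had log2 signals of at least 12.78 at day 28 and 13.35 at day 7, and Ibsp, which encodes bone sialoprotein, had at least 11.86 and 11.81. Blood-forming marrow was read too, as the neutrophil gene Mpo was at 12.73 or over at day 28 and at 12.19 or over at day 7. In such bulk samples, fewer cells of a type and less RNA per cell cannot be told apart.

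Skeletal muscle lies beside the tibia, and its transcripts were present on some arrays. Over 26 muscle genes, the mean score (the average over the list, with every gene first set to 0 at its own Ctrl average) was 4.09 in rat 23 and 2.01 in rat 29, against -0.77 to -0.55 in the other day 28 rats and -0.74 to 0.07 at day 7. Acta1, the actin of the sarcomere, reached 13.14 at day 28 with a median of 7.89, against a highest value of 9.06 and a median of 7.61 at day 7. The median difference of the list was 1.18, against 0.01 over all genes, with 0 of 26 genes past an unadjusted p of 0.05 by limma, and it was 0.45 without rat 23 and -0.10 without rats 23 and 29. Fhl1, a muscle-rich LIM protein gene, had 12.56 in rat 23 and 9.68 to 10.53 in the other day 28 rats, against 8.75 to 9.59 at day 7. Its groups did not overlap, while its difference of 1.26 ± 0.40 (SE) missed the threshold (adjusted p = 0.249).

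In the limma fit of the 12 arrays, 28 of 18166 genes with a single symbol (0.154%) passed an adjusted p of 0.05, of which 26 fell and 2 rose. A further 7 probe sets without a symbol passed, 4 of them lower and 3 higher, which brought the total to 35 of 36495 probe sets (0.0959%). At an unadjusted p under 0.05, 955 genes (5.26%) were higher and 1597 (8.79%) lower, and with a change of at least 1.5-fold added these became 47 (0.259%) and 230 (1.27%). The number higher was 1518 without rat 10 and 625 without rat 27. Over all probe sets, 4145 (11.4%) passed an unadjusted p, of which 48.5% were higher, or 34.9% after each array was centered on its median, 54.5% with array weights, 54.5% without rat 23 and 56.4% without rats 10 and 23, and 418 (1.15%) also changed by at least 1.5-fold. All 6 day 28 values lay above all 6 day 7 values in 63 genes (0.347%) and below them in 201 (1.11%). The total of 35 varied with the rats included. It was 1 without rat 21, rat 27 or rat 29, 2 without rat 11, 4 without rat 30, 5 without rat 5, 7 without rat 7, 17 without rat 10, 57 without rat 15, 58 without rat 28 and 83 without rat 23. Fxyd2 kept its call when each rat in turn was left out, the others lost theirs in 4 to 10 of the 12 such fits, and 0 of the 28 genes changed direction.

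**Figure D1:**
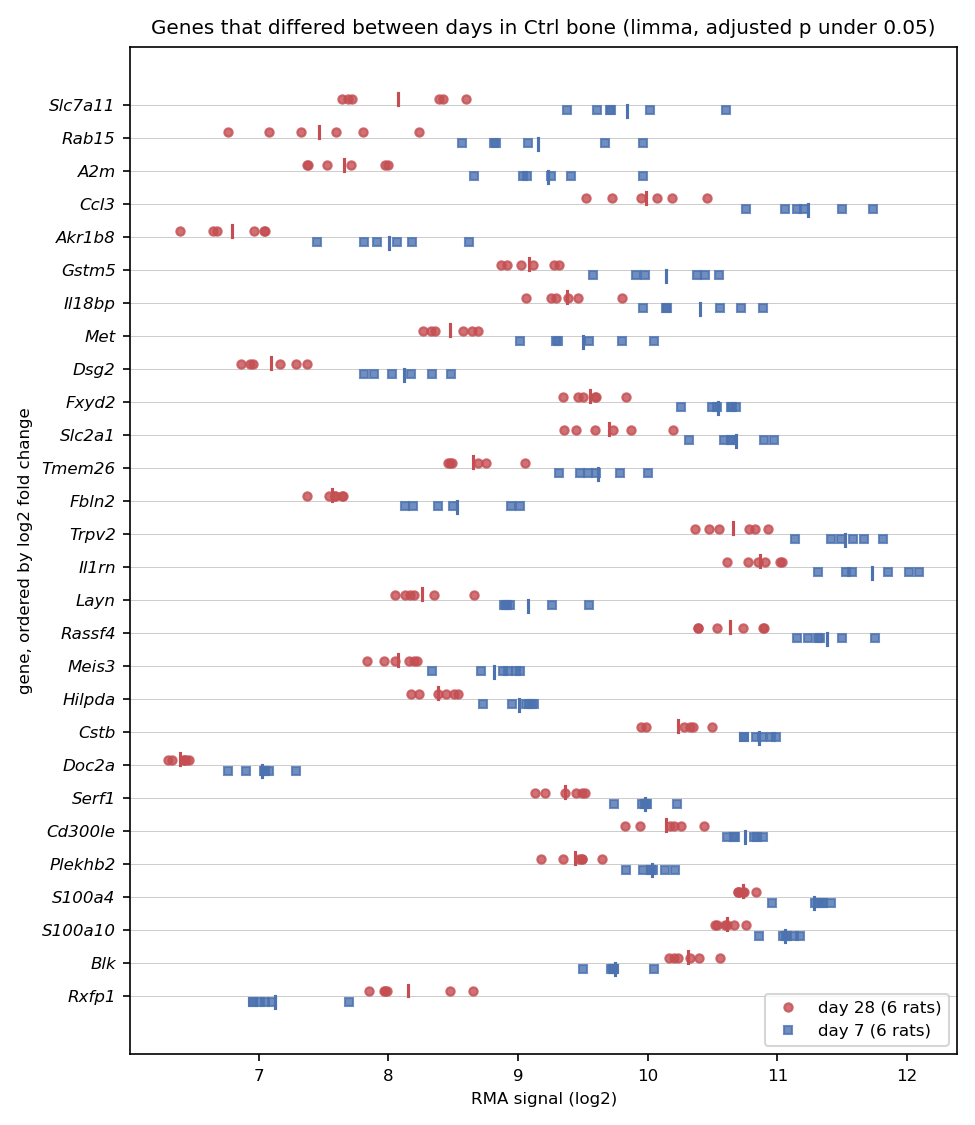
Log2 signal (horizontal axis) of the 28 genes past the adjusted threshold (vertical axis), with a circle for each day 28 rat, a square for each day 7 rat and a vertical line at each mean. The 26 genes that fell have all circles left of all squares, and Blk and Rxfp1 at the bottom have all circles to the right.

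Genes of the oxidative stress response were among the clearest decreases. NRF2 is a transcription factor that is freed when a cell meets oxidants or electrophiles and switches on genes for glutathione supply and detoxification. Slc7a11, the cystine importer that feeds glutathione synthesis, had a lowest, median and highest log2 signal of 7.64, 8.06 and 8.60 at day 28, against 9.38, 9.71 and 10.60 at day 7. Every day 28 rat was thus below every day 7 rat, and the gene fell by 1.76 ± 0.22 (SE, 3.39-fold, adjusted p = 0.0203). Akr1b8, an aldo-keto reductase that clears reactive aldehydes, had 6.39, 6.82 and 7.05 at day 28, against 7.45, 7.99 and 8.62 at day 7. It fell by 1.21 ± 0.17 (adjusted p = 0.0254), again without overlap. Gstm5, a glutathione S-transferase of a family with close copies that probes may share, had 8.87, 9.07 and 9.31 at day 28, against 9.58, 10.18 and 10.55 at day 7, and it fell by 1.05 ± 0.16 (adjusted p = 0.0273).

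Of all 40 NRF2 and glutathione genes measured, 8 were lower and 1 higher at an unadjusted p under 0.05, the higher one being Akr1b10 (0.55 ± 0.22), which was singled out after its values were seen and which did not pass without rat 7, 11, 23 or 27. Without the genes past the adjusted threshold, 5 of 37 were lower (13.5%, against 8.79% of all genes). Hmox1, which degrades heme, was below its day 7 range in every day 28 rat, with 9.28 to 9.71 at day 28 and 9.73 to 10.00 at day 7, yet its difference of -0.46 ± 0.08 had an adjusted p of 0.0682. Prdx1, a peroxide-removing enzyme, differed by -0.23 ± 0.07 (adjusted p = 0.217). The mean score of the list lay between -0.14 and -0.01 at day 28 and between 0.02 and 0.20 at day 7, so that the days did not overlap. That score includes the 3 members past the adjusted threshold, so it is no separate support for them or for the rest of the list. The number of lower genes was 13 without rat 15, and the number of higher ones was 3 without rat 10 or rat 15.

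Promoters of these genes were searched for the antioxidant response element, the site that NRF2 is known to bind, written here as TGACNNNGC on either strand. It stood within 250 bases before to 50 bases after the start in 12.2% of 27457 rat promoters (RefSeq, GRCr8) and in 9 of 34 NRF2 and glutathione promoters (26.5%). As the list was drawn with NRF2 targets in mind, its share is no independent support. Among the 26 genes that fell at an adjusted p, 20 had a promoter in the table and 4 held the letters, namely Gstm5, Cstb, Dsg2 and Serf1, while the window of Slc7a11 and that of Akr1b8 did not. The windows show the matches in capitals for Gstm5 and for Cstb, which encodes the cathepsin inhibitor cystatin B and fell by 0.63 ± 0.10 (adjusted p = 0.0341), because each held 2 of them, and for Prdx1 as an example of a list member with 1. They lie at chr2:198219631-198219749 on the plus strand, chr20:10247195-10247318 on the minus strand and chr5:135383746-135383804 on the plus strand, and each is written 5′ to 3′ along its gene. A match of letters is a description of the sequence and not evidence of binding.
Gstm5: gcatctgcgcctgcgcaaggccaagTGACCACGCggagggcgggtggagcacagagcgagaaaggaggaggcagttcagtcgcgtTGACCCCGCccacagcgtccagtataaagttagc
Cstb: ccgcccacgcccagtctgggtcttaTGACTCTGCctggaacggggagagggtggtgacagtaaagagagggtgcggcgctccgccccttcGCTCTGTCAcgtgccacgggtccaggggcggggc
Prdx1: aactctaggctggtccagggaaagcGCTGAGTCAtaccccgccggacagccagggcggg

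Glucose uptake and hypoxia genes were also lower at day 28. HIF-1 is the transcription factor that is stabilized when oxygen is short and raises glucose transport and glycolysis. Slc2a1, the glucose transporter GLUT1, had 9.35, 9.66 and 10.20 at day 28, against 10.32, 10.65 and 10.97 at day 7. No day 28 rat reached the day 7 range, and Slc2a1 fell by 0.98 ± 0.15 (adjusted p = 0.0273). Hilpda, a hypoxia-induced lipid droplet protein, had 8.17, 8.41 and 8.53 at day 28, against 8.73, 9.07 and 9.12 at day 7, and fell by 0.63 ± 0.09 (adjusted p = 0.0254). Eno2, an enolase, had 7.93 to 8.86 at day 28 and 9.07 to 9.69 at day 7, a difference of -0.96 ± 0.18 that missed the threshold (adjusted p = 0.0682). Of 28 glycolysis and hypoxia genes, a list without Hilpda, 11 were lower (39.3%, against 8.79% of all genes) and 0 higher at an unadjusted p under 0.05. The median was -0.18 (0.01 over all genes).

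The core of the hypoxia response element, ACGTG on either strand, occurred in 19.7% of all promoters, in 14 of 23 promoters of the glycolysis and hypoxia list (60.9%) and in 7 of 10 promoters of its genes that were lower at an unadjusted p. The list was drawn from known hypoxia targets and glycolytic enzymes, so its share is no independent support. Among the 26 genes that fell at an adjusted p, 20 had a matched promoter and 5 held the core. They were Slc2a1, Hilpda, Cstb, Dsg2 and Serf1. Of the 14503 promoters of measured genes, 3162 held it (21.8%). With the core in capitals, windows are shown for Slc2a1 (chr5:138002446-138002500, plus strand) and Hilpda (chr4:58836391-58836445, plus strand, not a list member). Both were named above as past the adjusted threshold. The third window is that of Eno2 (chr4:159267330-159267384, minus strand), a list member that missed it, and all are from GRCr8. The core begins at position -51 of Slc2a1, -47 of Hilpda and -139 of Eno2, counted from the RefSeq start of the gene.
Slc2a1: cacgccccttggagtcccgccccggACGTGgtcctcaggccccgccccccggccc
Hilpda: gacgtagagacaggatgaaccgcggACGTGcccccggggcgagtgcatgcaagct
Eno2: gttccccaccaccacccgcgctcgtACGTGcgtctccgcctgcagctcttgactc

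Arginine, proline and polyamine metabolism supplies proline for collagen. Of 21 of its genes, 10 were lower at day 28 (47.6%, against 8.79% of all genes) and 0 higher at an unadjusted p under 0.05 (median -0.18). The mean score lay between -0.30 and -0.06 at day 28 and between 0.04 and 0.27 at day 7. Arg1, the arginase that marks alternatively activated macrophages in rodents, had 6.51, 6.77 and 7.00 at day 28, against 7.09, 7.83 and 8.44 at day 7. The groups did not overlap, and the difference of -1.07 ± 0.18 lay just outside the threshold (adjusted p = 0.0555). Slc7a2, an arginine transporter, differed by -1.06 ± 0.25 (adjusted p = 0.131), and Pycr1, the last enzyme of proline synthesis, by -0.64 ± 0.19 (adjusted p = 0.229). The prolyl hydroxylase subunits P4ha3 and P4ha2, which ready procollagen for its triple helix, differed by -1.01 ± 0.23 and -0.63 ± 0.19 (adjusted p = 0.111 and 0.230).

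Inflammatory genes were led by a chemokine and by the natural inhibitors of interleukins. Ccl3, a chemokine that draws monocytes, had 9.53, 10.01 and 10.46 at day 28, against 10.76, 11.18 and 11.74 at day 7, and it fell by 1.25 ± 0.18 (2.38-fold, adjusted p = 0.0254). Il1rn, the interleukin 1 receptor antagonist, had 10.61 to 11.04 at day 28 and 11.32 to 12.10 at day 7 and fell by 0.86 ± 0.13 (adjusted p = 0.0284). Il18bp, the decoy that binds interleukin 18, had 9.06 to 9.80 at day 28 and 9.96 to 10.89 at day 7 and fell by 1.03 ± 0.17 (adjusted p = 0.0400). In all of these genes the days were separate. Of 36 cytokine and chemokine genes, 16 were lower (44.4%, against 8.79% of all genes) and 0 higher at an unadjusted p under 0.05. The median was -0.32, or -0.21 without rat 5.

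Other chemokines varied more between rats. Cxcl2, which attracts neutrophils, had 6.38, 6.99 and 8.31 at day 28, against 6.99, 8.62 and 11.31 at day 7. Rat 5 of day 7 was highest, rats 10 and 11 of day 7 lay inside the day 28 range, and the difference of -1.67 ± 0.61 did not pass (adjusted p = 0.314). Ccl7 differed by -1.43 ± 0.27 (adjusted p = 0.0746) with ranges that only just met, as day 28 reached 7.28 and day 7 began at 7.27. A kappaB site, the sequence that NF-kappaB binds, spelled GGGA, any base, TT, any base, CC on either strand, occurred in 1.14% of all promoters and in 4 of 25 promoters of the inflammatory list, which were those of Cxcl1, Cxcl2, Cxcl6 and Il6. Of the 9 promoters of list genes that were lower at an unadjusted p, 1 held it. As the list was drawn from known inflammatory genes, its share is no independent support for a part of NF-kappaB. The windows of the neighbouring genes Cxcl2 (chr14:17467294-17467353), Cxcl1 (chr14:17479371-17479430) and Cxcl6 (chr14:17596471-17596530), all on the minus strand of GRCr8, are shown with the site in capitals since the match lies at a like distance from each start, at -73, -84 and -88.
Cxcl2: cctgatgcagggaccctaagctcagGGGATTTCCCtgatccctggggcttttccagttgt
Cxcl1: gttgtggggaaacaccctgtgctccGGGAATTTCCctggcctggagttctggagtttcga
Cxcl6: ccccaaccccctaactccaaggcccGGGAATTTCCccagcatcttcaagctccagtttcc

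Macrophage and osteoclast genes shared the direction. Of 24 macrophage genes, 14 were lower (58.3%, against 8.79% of all genes) and 0 higher at an unadjusted p under 0.05. Their median was -0.26, with 0 past the adjusted threshold. Mmp12, the macrophage elastase, had 10.64, 11.69 and 12.61 at day 28, against 12.81, 12.95 and 13.38 at day 7. Its groups were separate, and the difference of -1.37 ± 0.26 had an adjusted p of 0.0746. The galectin gene Lgals3 (-0.54 ± 0.11, adjusted p = 0.0769) and the scavenger receptor gene Msr1 (-0.85 ± 0.19, adjusted p = 0.111) were also separate between days. The general markers differed by less, with -0.28 ± 0.09 for Cd68, -0.20 ± 0.09 for Csf1r and 0.30 ± 0.14 for Cd163, a marker of resident macrophages with the opposite sign (adjusted p = 0.252, 0.433 and 0.448).

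Among osteoclast genes, 10 of 13 were lower and 1 higher at an unadjusted p under 0.05, with a median of -0.44. These are 76.9% and 7.69% of the list, against 8.79% and 5.26% of all genes. The proton pump subunit Atp6v0d2 had 9.25 to 10.31 at day 28 and 10.38 to 10.98 at day 7, a difference of -0.82 ± 0.19 (adjusted p = 0.124). Clcn7, the chloride transporter of the resorbing membrane, had 9.54 to 10.11 at day 28 and 10.11 to 10.64 at day 7, a difference of -0.57 ± 0.12 (adjusted p = 0.105). Siglec15, a receptor needed for fusion, differed by -0.70 ± 0.18 (adjusted p = 0.158). The collagen-degrading protease gene Ctsk was near the top of the signal range at both times, with 12.81 to 13.41 at day 28 and 13.32 to 13.58 at day 7, and differed by -0.29 ± 0.11 (adjusted p = 0.335). The higher gene was Car2, carbonic anhydrase 2, at 0.32 ± 0.12 (singled out after its values were seen and not past the threshold without rat 11 or 27), which erythroid cells also express. The mean score of the list was 0.02 or less at day 28 and 0.03 or more at day 7.

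In the 6 lists of matrix genes, Fbln2 and A2m passed the adjusted threshold. Fbln2, the matrix protein fibulin-2, had 7.38, 7.59 and 7.65 at day 28, against 8.13, 8.44 and 9.02 at day 7. It fell by 0.96 ± 0.15 (adjusted p = 0.0284). Its list, of 15 elastic fiber and fibulin genes, had a median of -0.007, with 6 genes positive. At an unadjusted p under 0.05, 4 were lower (26.7%, against 8.79% of all genes) and 0 higher. A2m, alpha-2-macroglobulin, a trap for proteases and an acute-phase protein in rats, had 7.37, 7.62 and 7.996 at day 28, against 8.66, 9.16 and 9.96 at day 7. It fell by 1.57 ± 0.19 (2.97-fold, adjusted p = 0.0203), and all day 28 rats lay below all day 7 rats.

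Collagens moved together in direction. All 17 fibrillar and associated collagens measured were lower at day 28, with a median of -0.51. At an unadjusted p under 0.05, 12 of them were lower (70.6%, against 8.79% of all genes). Col15a1, a basement membrane zone collagen, had 7.94 to 9.09 at day 28 and 9.14 to 9.87 at day 7 and differed by -0.93 ± 0.21 (adjusted p = 0.111). Col1a1, the main collagen of bone, differed by -0.18 ± 0.12 (adjusted p = 0.615) at a signal near the top of the array's range. Of 19 genes that modify or cross-link collagen, 16 were lower (84.2%, against 8.79% of all genes) and 0 higher at an unadjusted p under 0.05. Their median was -0.59. Lox, the lysyl oxidase that starts cross-linking, had 8.80, 10.45 and 11.03 at day 28, against 10.61, 11.46 and 12.06 at day 7, and differed by -1.21 ± 0.36 (adjusted p = 0.225), while Loxl2 differed by -1.03 ± 0.25 (adjusted p = 0.142). Both genes overlapped between days.

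The proteoglycan and matricellular genes had the widest spread among rats. Aspn, asporin, which binds collagen and calcium, had the largest decrease in size of all 18166 genes, with 7.88, 9.20 and 11.60 at day 28, against 9.72, 11.44 and 12.31 at day 7. Rat 28 of day 28 had 11.60, above 5 of the day 7 rats, and rat 15 of day 7 had 9.72, so the difference of -1.91 ± 0.56 did not pass (adjusted p = 0.217). Of 10 small leucine-rich proteoglycans, 5 were lower at an unadjusted p (Aspn, Lum, Ogn, Fmod and Dcn), which is 50% against 8.79% of all genes. That count was 1 without rat 4, 21 or 27, 2 without rat 5 or 7 and 3 without rat 11. Of 14 matricellular genes, 6 were lower (42.9%, against 8.79% of all genes) and 0 higher (median -0.36). Tgfbi, a fibril-bound adhesion protein induced by TGF-beta, was separate between days, with 9.86 to 10.50 at day 28 and 10.60 to 11.53 at day 7 (-0.88 ± 0.16, adjusted p = 0.0603). Tnn (tenascin-N) and Thbs2 (thrombospondin-2) differed by -1.59 ± 0.44 and -1.40 ± 0.42 (adjusted p = 0.201 and 0.225). Of 29 matrix proteases and inhibitors, 17 were lower (58.6%, against 8.79% of all genes) and 0 higher, or 11 lower without rat 27 (median -0.45).

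**Figure D2:**
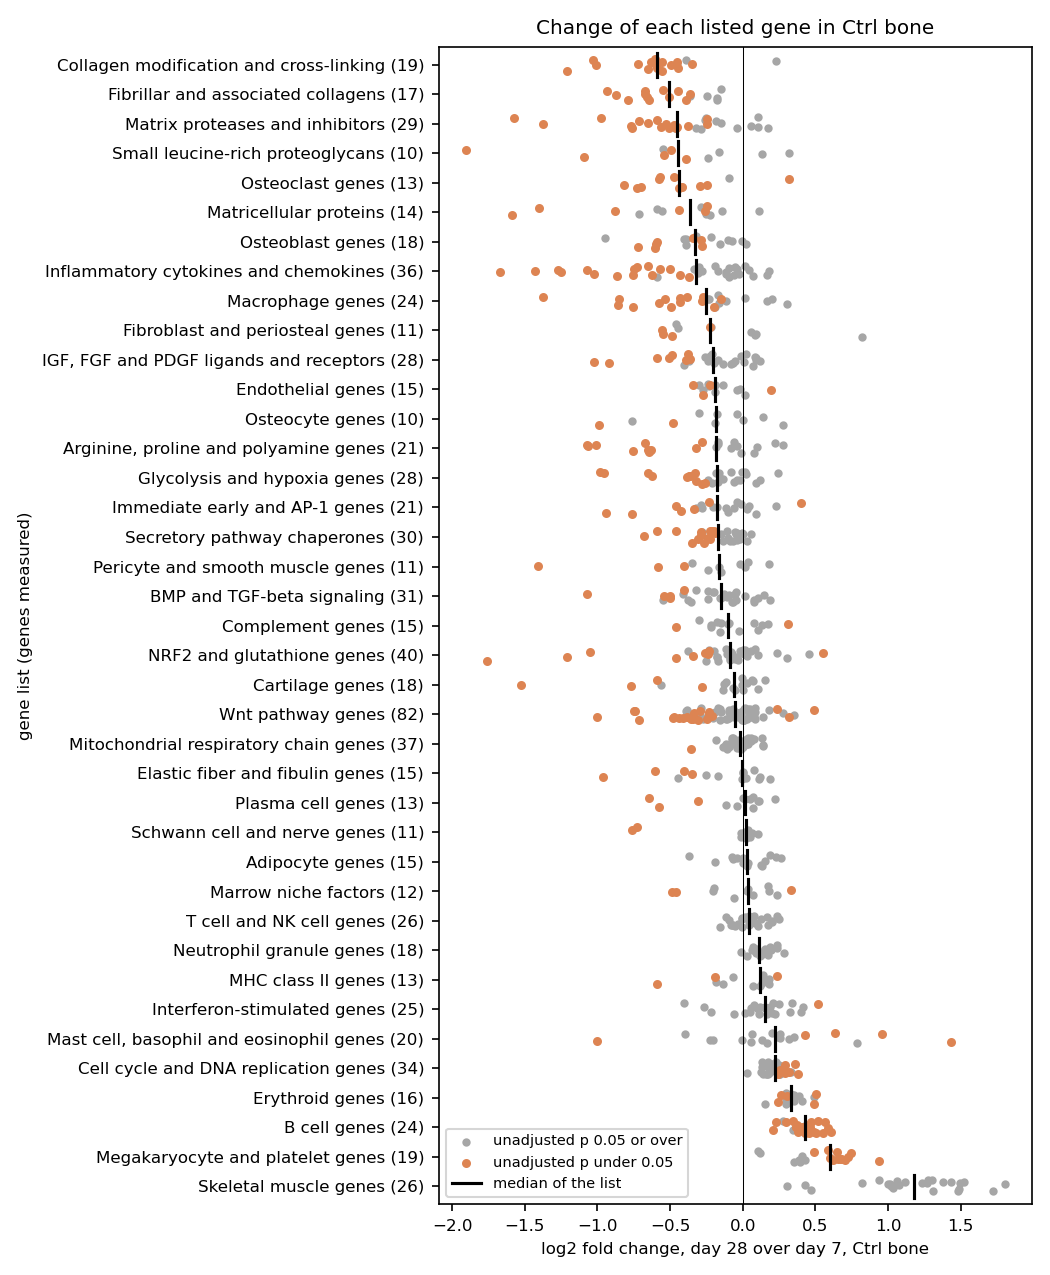
Log2 fold change of day 28 over day 7 (horizontal axis) for each measured gene of 39 lists (vertical axis, number of genes in parentheses), in orange where the unadjusted p was under 0.05, with a black bar at the list median. Medians ran from -0.59 for collagen cross-linking at the top to 0.60 for megakaryocyte genes and 1.18 for skeletal muscle genes at the bottom.

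Osteoblasts make and mineralize bone matrix, and osteocytes are the cells that become enclosed in it. Of 18 osteoblast genes, 7 were lower (38.9%, against 8.79% of all genes) and 0 higher at an unadjusted p under 0.05 (median -0.33). The number of lower genes was 1 without rat 27, 2 without rat 4 or 21 and 3 without rat 7 or 11. Sp7, osterix, the transcription factor of osteoblast commitment, had 8.38 to 9.55 at day 28 and 9.29 to 10.46 at day 7 and differed by -0.60 ± 0.23 (adjusted p = 0.341). Ibsp differed by -0.07 ± 0.16 and Bglap, osteocalcin, by -0.29 ± 0.13 (adjusted p = 0.907 and 0.408). Of 10 osteocyte genes, 2 were lower (20%, against 8.79% of all genes). They were Pdpn (-0.99 ± 0.31), a gene of young osteocytes, and the gap junction gene Gja1 (-0.48 ± 0.19). The number was 1 without rat 4, 7, 21 or 27 and 4 without rat 10. Mepe, a matrix protein gene of mature osteocytes, had 7.58, 8.76 and 9.07 at day 28, against 7.58, 8.14 and 8.89 at day 7, and the ranges coincided (0.28 ± 0.29, adjusted p = 0.767). Of 18 cartilage genes, 4 were lower (Acan, Col11a1, Prg4 and Col11a2), which is 22.2% against 8.79% of all genes. Acan, aggrecan, had 7.64 to 10.12 at day 28 and 9.30 to 11.28 at day 7 (-1.52 ± 0.38, adjusted p = 0.147), whereas Col2a1 and Col10a1, the defining collagens of cartilage, differed by 0.16 ± 0.19 and 0.10 ± 0.07 (adjusted p = 0.803 and 0.637).

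Signaling genes changed in part. Met, the receptor of hepatocyte growth factor, had 8.27, 8.47 and 8.69 at day 28, against 9.01, 9.43 and 10.05 at day 7, and fell by 1.03 ± 0.16 (adjusted p = 0.0284). It was 1 of 8 genes of 28 in the IGF, FGF and PDGF list that were lower at an unadjusted p (5 without rat 4, 7, 11, 21 or 27), beside Igf2r (-0.59 ± 0.12, adjusted p = 0.0785) and the ligand gene Pdgfa (-0.92 ± 0.23, adjusted p = 0.152). The 8 are 28.6% of that list, against 8.79% of all genes. Of 31 BMP and TGF-beta genes, 5 were lower (Tgfbr1, Tgfb2, Grem1, Id3 and Acvr1), or 9 without rat 10, and 0 were higher. The 5 are 16.1% of the list, against 8.79% of all genes. Tgfb2 differed by -1.07 ± 0.26 (adjusted p = 0.134). Of 82 Wnt pathway genes, 18 were lower (22%, against 8.79% of all genes) and 3 higher (3.66%, against 5.26%), the higher ones being Prkca and, singled out after their values were seen, Lef1 and Rnf43. Without rat 23, 5 were higher. The secreted Wnt inhibitor gene Sfrp5 had 8.01, 8.16 and 8.77 at day 28, against 8.80, 9.02 and 10.00 at day 7, without overlap (-1.002 ± 0.20, adjusted p = 0.0769). The receptor gene Fzd2 differed by -0.75 ± 0.18 (adjusted p = 0.132), the co-receptor gene Lrp5 by -0.16 ± 0.14 and the inhibitor gene Dkk1 by -0.30 ± 0.32 (adjusted p = 0.708 and 0.772). Prkca, a protein kinase C of the calcium branch, ran the other way, with 10.62 to 11.09 at day 28 and 10.14 to 10.49 at day 7 (0.49 ± 0.09, adjusted p = 0.0746).

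Immediate early genes, which switch on within minutes of a stimulus, were lower for 6 of 21 members and higher for 1, Dusp2 (0.40 ± 0.17, singled out after its values were seen and not past the threshold without rat 4, 7, 11, 15, 21, 27 or 29). These are 28.6% and 4.76% of the list, against 8.79% and 5.26% of all genes. Egr2 differed by -0.76 ± 0.16 (adjusted p = 0.1001), Atf3 by -0.94 ± 0.23 (adjusted p = 0.134) and the AP-1 subunit gene Fosl1 by -0.34 ± 0.08 (adjusted p = 0.124). Fosl1 had 7.27 to 7.75 at day 28 and 7.70 to 7.90 at day 7.

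The strongest single decrease by p was that of Fxyd2, the gamma subunit that tunes the sodium pump. It had 9.34, 9.55 and 9.83 at day 28, against 10.26, 10.59 and 10.69 at day 7, with a gap between the ranges, and it fell by 0.99 ± 0.09 (adjusted p = 0.00314). Rab15, a GTPase of recycling endosomes, fell by 1.69 ± 0.27 (adjusted p = 0.0400) and the desmosomal cadherin gene Dsg2 by 1.02 ± 0.13 (adjusted p = 0.0203). Trpv2, a cation channel of macrophages and other cells, fell by 0.86 ± 0.12, and Layn, a hyaluronan receptor, by 0.82 ± 0.13 (adjusted p = 0.0254 and 0.0400). The calcium-binding S100a4 and S100a10 fell by 0.55 ± 0.08 and 0.44 ± 0.07 (adjusted p = 0.0254 and 0.0304). The other genes that fell were Tmem26, Rassf4, Meis3, Doc2a, Serf1, Cd300le and Plekhb2, by between 0.60 and 0.97 on the log2 scale.

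The genes that rose were few. Rxfp1, the receptor of relaxin, a hormone that softens collagen, had 7.85, 7.98 and 8.65 at day 28, against 6.96, 7.03 and 7.70 at day 7. Rat 15 was the highest of day 7 by a wide gap but stayed below every day 28 rat, and Rxfp1 rose by 1.02 ± 0.16 (2.03-fold, adjusted p = 0.0346). Blk, a Src-family kinase of B lymphocytes, had 10.17, 10.28 and 10.56 at day 28, against 9.50, 9.74 and 10.05 at day 7, and rose by 0.57 ± 0.09 (adjusted p = 0.0406).

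All 24 B cell genes had a positive difference, with a median of 0.43. At an unadjusted p under 0.05, 21 were higher (87.5%, against 5.26% of all genes). Cd72, a B cell coreceptor, had 11.16, 11.64 and 11.78 at day 28, against 10.83, 10.98 and 11.20 at day 7 (0.60 ± 0.11, adjusted p = 0.0565). Rat 23 was the lowest of day 28 for Cd72 and fell inside the day 7 range. Fcrl1, a receptor-like gene of the B lineage, was separate between days with 8.92 to 9.32 at day 28 and 8.43 to 8.91 at day 7 (0.50 ± 0.09, adjusted p = 0.0682). The antigen receptor chains Cd79a and Cd79b differed by 0.36 ± 0.11 and 0.37 ± 0.09 (adjusted p = 0.230 and 0.157). Of 26 T and NK cell genes, 0 passed an unadjusted p of 0.05 in either direction. Of 13 plasma cell genes 0 were higher and 3 lower (Sdc1, Prdm1 and Fkbp11), which is 23.1% against 8.79% of all genes. The median of that list was 0.02, and 8 of its 13 genes had a positive difference.

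Megakaryocyte genes had the highest median outside muscle, 0.60. At an unadjusted p under 0.05, 12 of 19 were higher (63.2%, against 5.26% of all genes) and 0 lower. Mmrn1, multimerin, a platelet granule protein, had 10.16, 10.60 and 11.34 at day 28, against 8.96, 9.80 and 10.41 at day 7, with overlap (0.93 ± 0.24, adjusted p = 0.1596). Gp1ba, the platelet receptor for von Willebrand factor, differed by 0.75 ± 0.25 (adjusted p = 0.267), and the fibrinogen receptor chain Itga2b by 0.70 ± 0.27 (adjusted p = 0.344). All 16 erythroid genes and all 34 cell cycle genes also had a positive difference, with medians of 0.33 and 0.22. An unadjusted p of 0.05 was passed by 5 erythroid genes (Hba-a1, Hemgn, Trim10, Sptb and Tfrc, 31.2%) and 8 cell cycle genes (23.5%), against 5.26% of all genes. Those numbers depended on the rats included. Without 1 rat the erythroid count was 1 (rat 4, 7, 11, 21, 27 or 30), 2 (rat 5 or 28), 8 (rat 23), 10 (rat 15) or 13 (rat 10), and the cell cycle count was 3 (rat 4, 7, 21, 27 or 30), 4 (rat 11), 14 (rat 15), 15 (rat 23) or 20 (rat 10). Of 18 neutrophil genes, 0 passed an unadjusted p of 0.05.

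**Figure D3:**
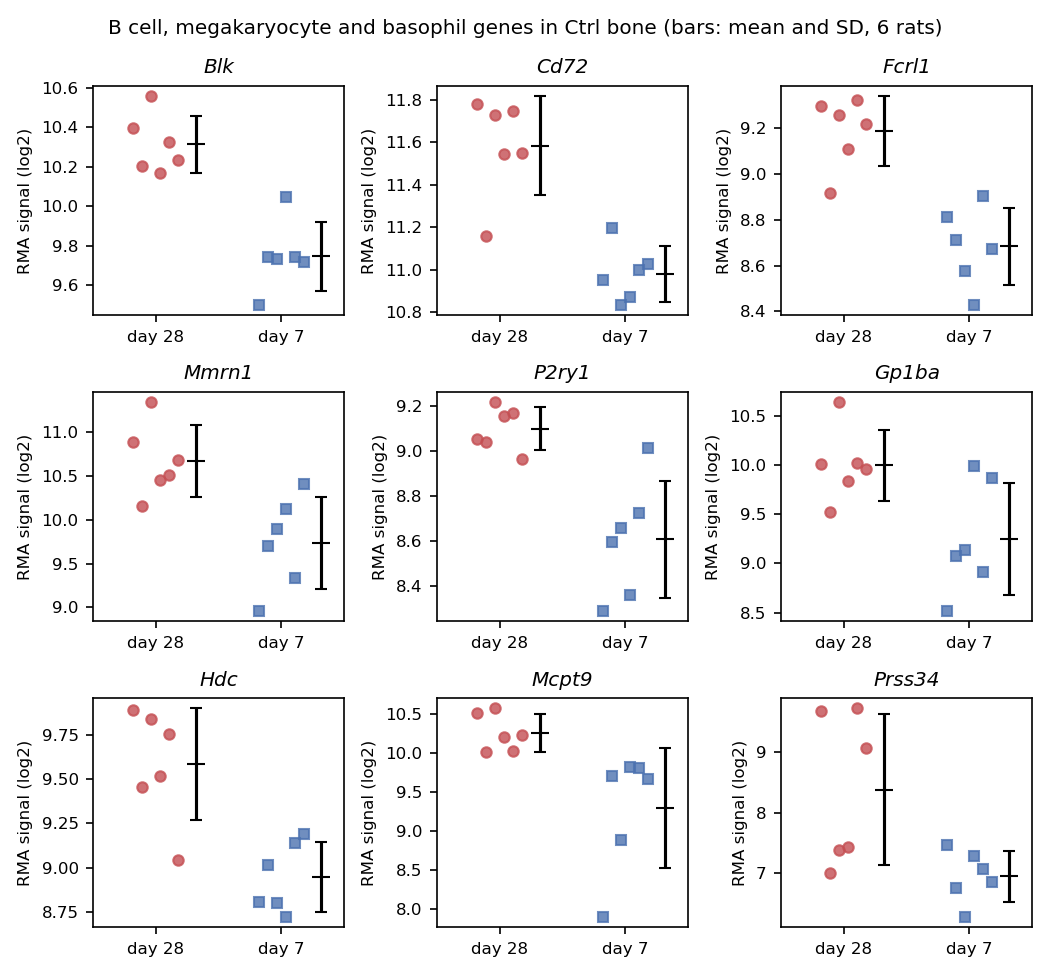
Log2 signal (vertical axes, each on its own scale) of B cell genes (top), megakaryocyte genes (middle) and basophil or mast cell genes (bottom) on each array, day 28 left and day 7 right, with the mean and SD of 6 rats. Blk, Fcrl1 and Mcpt9 have no overlap between days, and Prss34 is at 9.07 or more in 3 day 28 rats and at 7.44 or less in the other 3.

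Some basophil and mast cell genes had large differences carried by few rats. Prss34, a serine protease that marks basophils in mice, had 9.68, 9.73 and 9.07 in rats 21, 29 and 30 and 7.00, 7.38 and 7.44 in rats 23, 27 and 28 at day 28, against 6.27 to 7.46 at day 7. Rats 23, 27 and 28 lay near the day 7 range, so the difference of 1.44 ± 0.47 (adjusted p = 0.267) came from rats 21, 29 and 30. Prss29, a neighbouring protease gene of like sequence, was high in the same rats at 10.01, 9.68 and 9.38, with 7.22 to 7.504 in the rest of day 28 and 6.74 to 7.81 at day 7 (1.31 ± 0.49, adjusted p = 0.325). Mcpt9, a mast cell protease gene, had 10.01 to 10.57 at day 28 and 7.90 to 9.82 at day 7, separate between days (0.96 ± 0.29, adjusted p = 0.233). Hdc, which makes histamine, differed by 0.64 ± 0.14 (adjusted p = 0.110). Mcpt1 had the opposite sign (-1.001 ± 0.38, adjusted p = 0.340), and the mast cell markers Cpa3 and Tpsab1 differed by -0.21 ± 0.28 and -0.40 ± 0.35 (adjusted p = 0.826 and 0.706). Over the list of 20, 4 genes were higher (Hdc, Mcpt9, Prss34 and Ms4a2, the IgE receptor beta chain) and 1 lower at an unadjusted p, which is 20.0% and 5.0% of the list, against 5.26% and 8.79% of all genes. Without rat 30 the number higher was 8.

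Scores of matrix and marrow lists lay on opposite sides of 0 in several rats. The collagen score was lowest in rats 27 (-0.87) and 21 (-0.49) of day 28, and these rats had the highest day 28 scores for megakaryocyte genes (0.72 and 0.36), B cell genes (0.39 and 0.38) and erythroid genes (0.40 and 0.35). Rat 4 of day 7 had the highest collagen score (0.61) and the lowest megakaryocyte and erythroid scores (-0.90 and -0.61). Rats 10 and 15 of day 7 had collagen scores of 0.12 and -0.10 with erythroid scores of 0.47 and 0.35, which lie in or above the day 28 range, and rat 23 of day 28 had an erythroid score of -0.18. The part of the amount of marrow in each piece of bone in these differences was not tested. The NRF2, arginine and osteoclast scores were separate between days for all 12 rats. These 3 of 39 lists were singled out after the values were seen. The osteoclast score, at most 0.02 at day 28 and at least 0.03 at day 7, was also lowest in rats 21 (-0.57) and 27 (-0.54). It was highest in rat 4 (0.43). The arginine score was likewise lowest in rats 21 (-0.30) and 27 (-0.25), while the NRF2 score was lowest in rats 29 (-0.14) and 23 (-0.13). The NRF2 score includes genes already past the adjusted threshold.

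**Figure D4:**
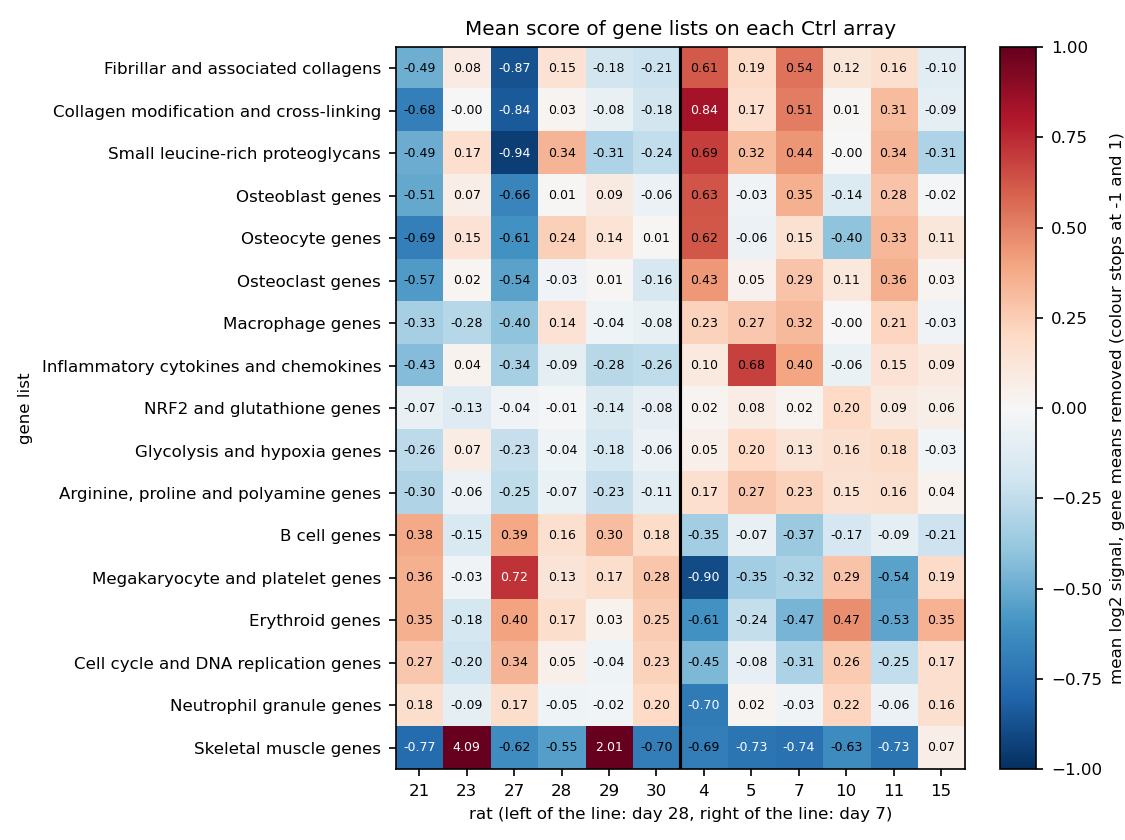
Mean score of 17 gene lists (rows) on the 12 Ctrl arrays (columns, day 28 left of the line and day 7 right), in log2 units after the mean of each gene was removed. Red is above and blue below the mean, and rats 21 and 27 of day 28 are blue in the bone rows and red in the marrow rows, while muscle genes reach 4.09 in rat 23 and 2.01 in rat 29.

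The same time course was measured in Li+ bone of the same rats, which allows a test of whether the Ctrl changes differed from those beside the lithium implants. With the rat as a block, 0 of 36495 probe sets had a difference between the time courses at an adjusted p under 0.05 by limma, and 1320 had one at an unadjusted p. Ctrl and Li+ values come from the same rats and are not independent, so the sign or call of a gene in Li+ bone is no separate support. Of the 28 genes that changed in Ctrl bone, 2 (Serf1 and Tmem26) had a difference between the courses at an unadjusted p, where 2.35% of all genes did. The genes were chosen on their Ctrl values, so a larger size in Ctrl bone, which 25 of them had, is no finding. Slc7a11 differed between days by -1.76 ± 0.22 in Ctrl bone and -1.40 ± 0.26 in Li+ bone, and A2m by -1.57 ± 0.19 in Ctrl bone and -1.93 ± 0.24 in Li+ bone. The difference between the courses was -0.36 ± 0.25 for Slc7a11 and 0.35 ± 0.19 for A2m, and it lay between -0.36 and 0.35 for all 28.

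**Figure D5:**
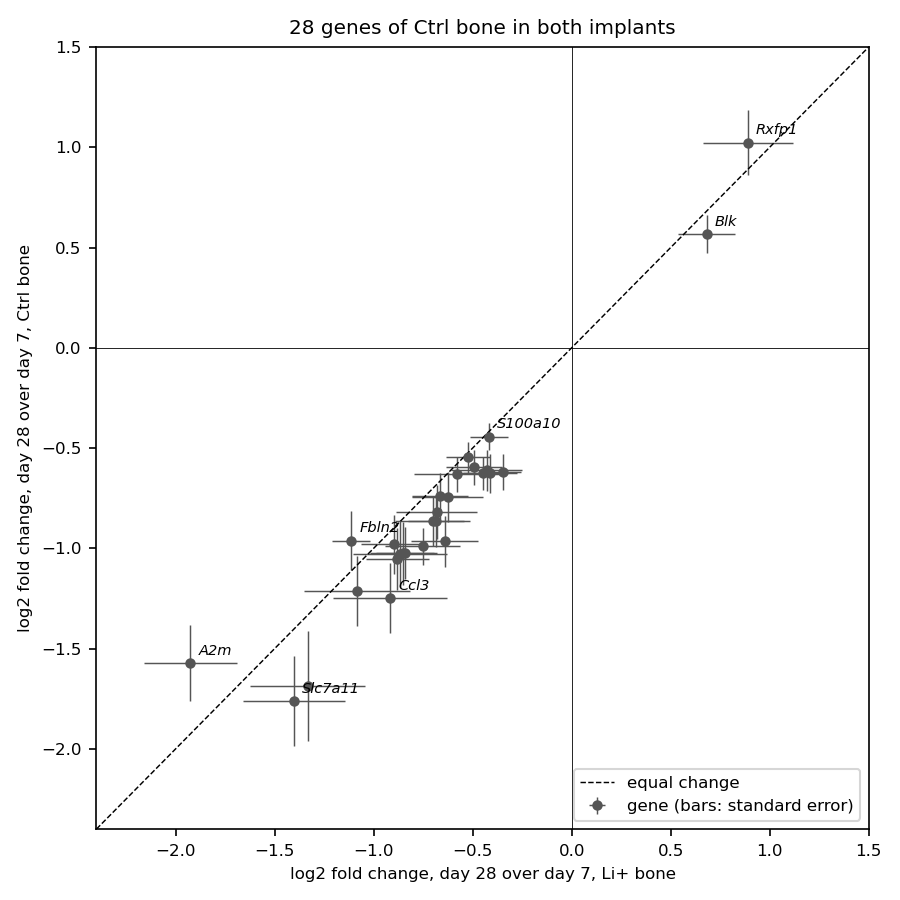
Log2 fold change of day 28 over day 7 in Ctrl bone (vertical axis) and in Li+ bone (horizontal axis) for the 28 genes past the adjusted threshold in Ctrl bone, with standard errors as bars and a dashed line of equal change. Rxfp1 and Blk are above 0 in both implants and the other 26 genes below 0 in both.

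Osteocyte genes had some differences between the courses. Of the list, 3 of 10 members (Mepe, Dkk1 and Sost, the last singled out after its values were seen) had a difference at an unadjusted p, where 2.35% of all genes did. The list itself was singled out among 39 after the values were seen. Its members were listed as genes of 1 cell type and may vary together, so they are not separate observations. The score of the list ran from -0.69 to 0.24 among day 28 Ctrl rats. Mepe differed between days by 0.28 ± 0.29 in Ctrl bone and -0.45 ± 0.32 in Li+ bone, a difference of 0.73 ± 0.23 between the courses. For Dkk1 it was -0.30 ± 0.32 in Ctrl bone and -0.98 ± 0.28 in Li+ bone (0.68 ± 0.23). Sost, sclerostin, a Wnt inhibitor of osteocytes, had 0.14 ± 0.24 in Ctrl bone and -0.35 ± 0.20 in Li+ bone (0.49 ± 0.17). None of these passed after adjustment over all probe sets (adjusted p = 0.9995 for Mepe).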

How the data were processed

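Peri-implant bone RNA of 12 Ctrl arrays (6 rats per day) was compared, with the 12 Li+ arrays of the same rats used for the difference between time courses. The deposited log2 values had been made by the authors with RMA (background correction, quantile normalization and summary over probes), and the submitters' processing notes name Affymetrix Expression Console 1.1.2. Such normalization sets the arrays to a common distribution, so a shift of all genes would not be seen, and the number of arrays limits the precision.

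After 190 control probe sets were left out, 36495 probe sets were fitted with limma 3.58.1 in R 4.3.3 (lmFit and eBayes, unpaired, Benjamini-Hochberg adjustment over all of them, threshold 0.05). Values with ± are the difference and its standard error, for Ctrl bone from that fit and for Li+ bone from a like fit of the 12 Li+ arrays. Those for the difference between time courses are from the fit of all 24 arrays with the rat as a block. In each, n is 6 rats per day. The platform table gave 1 symbol to 18511 probe sets, several to 575 and none to 17409. The 18166 genes with 1 symbol were each read by the probe set with the highest mean over the Ctrl arrays (291 had several). The unadjusted p of single members is from the same limma fit and is used for counting only. On simulated data for the Ctrl comparison over 36495 probe sets, 100 were changed per size. There the fit recovered 61% of 1.5-fold and 88% of 2-fold changes, with 4 false calls. Whether these shares hold for the measured arrays was not tested. On the measured arrays, the number of probe sets past the adjusted threshold was 1 without rat 21 and 83 without rat 23.

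The study's methods used a t-test on log2 values with a 1.5-fold limit, which was run as an alternative (the methods' t-test). The difference between time courses was fitted with the rat as a block, since both implants sat in 1 animal. Deviations of Ctrl and Li+ arrays of a rat correlated at 0.0675 to 0.569 (median 0.279). Genes were named if they passed the adjusted threshold, were among the 12 largest rises or falls with an unadjusted p under 0.05 and a signal above the median, were up to 5 members of a list with the smallest p or its defining markers, or had been measured by qPCR in the study. The members and gene lists were chosen with earlier results of these data known. Promoter windows of RefSeq (GRCr8), 250 bases before to 50 after the start, were matched by Entrez gene ID for 14503 of 18166 genes. Alternatives were the scaling, a filter on low signal, the probe sets tested, the test, the spread, array weights, leaving out arrays and the probe set that stands for a gene.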

Additional observations from a re-analysis of the deposited data

Results flagged for a closer look

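In 186 groups of 6 arrays (54 named genes and the mean scores of 39 gene lists), 12 groups had 1 array far from the other 5, where chance gives such an array in about 1 in 20 groups. Among genes, S100a4 had 10.84 in rat 28 of day 28, against 10.70 to 10.75 in the other day 28 rats, and 10.96 in rat 15 of day 7, against 11.29 to 11.42 in the other day 7 rats. Rxfp1 had 7.70 in rat 15 of day 7, above 6.96 to 7.10 in the others. Fhl1 had 12.56 in rat 23 of day 28, above 9.68 to 10.53 in the others, the rat with the highest muscle score. Sfrp5 had 8.77 in rat 28 of day 28, above 8.01 to 8.24 in the others, and Fosl1 had 7.70 in rat 11 of day 7, below 7.83 to 7.90 in the others.

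Among list scores, rat 28 of day 28 was high for plasma cell genes (0.14, others -0.13 to -0.04), and rat 23 of day 28 for mitochondrial respiratory chain genes (0.33, others -0.12 to -0.04). In day 7, rat 10 was high for mitochondrial genes (0.26, others -0.08 to 0.00) and for NRF2 and glutathione genes (0.20, others 0.02 to 0.09). Rat 15 was high for skeletal muscle genes (0.066, others -0.74 to -0.63), and rat 4 was low for neutrophil genes (-0.70, others -0.06 to 0.22).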

How the results depend on the processing

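Of 35 probe sets past the adjusted threshold, the number was 53 after centering each array on its median, 119 among probe sets above the median signal, 105 among those with a single symbol, 1 by the methods' t-test, 263 with all 24 arrays and the rat as a random block, 214 with array weights and 3 without rats 23 and 29. Leaving out each rat in turn gave 1 to 83. Of 418 probe sets at 1.5-fold and an unadjusted p, the number was 278 among those with a single symbol, 710 without rats 23 and 29 and 777 without rats 10 and 23. The cause of these shifts was not tested. Under the filters, fewer probe sets entered the fit. The medians of 10 of 39 lists had the opposite sign under at least 1 alternative, 7 of them medians of 0.1 or less in size. Among the larger ones, that of skeletal muscle genes was -0.10 without rats 23 and 29. That of MHC class II genes (0.12) ranged between -0.0080 without rat 28 and 0.15 without rat 23, and that of neutrophil genes (0.11) between -0.011 without rat 4 and 0.17 without rat 15. The days hold different rats, so the Ctrl days could not be paired. For the difference between time courses, the replicate block and no replicate block each left 0 probe sets at an adjusted p by limma (1320 and 769 at an unadjusted p). Of 244 named genes, 13 had the opposite sign under at least 1 alternative, of which 0 had an unadjusted p under 0.05. Among them, Acta1 was at -0.14, Ckm at -0.29 and Tnnt3 at -0.06 without rats 23 and 29.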

Other observations

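Genes of the secretory pathway, whose chaperones and translocon fold and export proteins such as collagen, were lower at day 28 for 14 of 30 members and higher for 0 at an unadjusted p under 0.05 (limma), with a median of -0.17 and 0 past the adjusted threshold. The 14 are 46.7% of the list, against 8.79% of all genes. Kdelr3, a receptor that returns chaperones to the endoplasmic reticulum, differed by -0.68 ± 0.18, and Sec61a1, the pore of the translocon, by -0.31 ± 0.09 (adjusted p = 0.1601 and 0.202).

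Of 11 pericyte and smooth muscle genes 3 were lower (27.3%, against 8.79% of all genes), led by the actin-binding Tagln (-1.41 ± 0.30, adjusted p = 0.102). Of 13 MHC class II antigen presentation genes, 1 was higher and 2 lower at an unadjusted p under 0.05, with a positive median of 0.12. These are 7.69% and 15.4% of the list, against 5.26% and 8.79% of all genes. The member with the largest decrease, the lysosomal protease gene Lgmn, differed by -0.59 ± 0.11 (adjusted p = 0.0682). Of 15 adipocyte genes, 0 passed an unadjusted p of 0.05.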
